A study of Mus musculus with 8 samples.

Results

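The 38 genes described here encode the machinery of mitosis: the mitotic cyclins and their kinase, the spindle, the kinetochore and the apparatus of cell division. They were taken by symbol from a table of 23131 genes, where each of the 38 had 1 row. All 38 averaged at least 10 normalised counts over the 8 libraries, as did 16688 genes in all, which were those tested. The RNA came from granulocyte-macrophage progenitors (GMP), the marrow cells from which neutrophils and monocytes arise, sorted from lineage-negative marrow by CD34 and high CD16/32. The 4 RH2hKO mice had the genotype Rnaseh2bfl/fl VavCre+ and the 4 RH2hWT littermates were Rnaseh2bfl/fl VavCre-, all on C57BL/6, and the labels give no age. All 8 mice thus carried the floxed alleles of Rnaseh2b, a subunit gene of RNase H2, which removes ribonucleotides from DNA. Only the knockouts carried Vav-Cre, a recombinase driven by a promoter active throughout the blood-forming system, so that the deletion is not particular to GMP. The labels give 4 mice a genotype, and each library is called by its replicate number, 5 to 8 for knockouts and 1 to 4 for controls.

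Mitotic entry is driven by cyclin B bound to the kinase CDK1, and mitosis ends when the anaphase-promoting complex (APC/C) marks cyclin B for destruction. The genes of this programme are switched on together late in the cell cycle, through a promoter element called the cell cycle genes homology region (CHR) and the nearby CCAAT boxes bound by NF-Y. In many cell types DNA damage activates p53, p53 induces the CDK inhibitor p21, and the DREAM complex then represses these genes through the CHR. The comparison asks whether the levels of these genes differed between knockout and control GMP.

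Promoter sequences show how the genes share that element. RefSeq windows of build GRCm38.p6, from 250 bases before to 50 bases after a gene start, were found for 32 of the 38 genes, 34 windows in all. The CHR letters TTTGAA or TTCGAA, on either strand, were in 28 of the 34 windows (82.4%), against 19.2% of all 32851 promoter windows. In 24 genes a match began within 50 bases of the start. The CCAAT letters, on either strand, were in 76.5% of the windows, against 37.4% of all, and 61.8% held at least 2, against 11.7%. The 2 motifs were searched independently, so a few letters may count in both. The 100 bases before the start of 6 genes are given 5′ to 3′ on the gene's strand, with CHR and CCAAT letters in capitals (the reverse strand reads TTCAAA and ATTGG). They were chosen because a CHR match lies within 30 bases of the start in each, and they include the cyclin kinase gene and the 2 genes with the highest fold changes.
Cdk1 (chr10:69352913-69353012, minus strand): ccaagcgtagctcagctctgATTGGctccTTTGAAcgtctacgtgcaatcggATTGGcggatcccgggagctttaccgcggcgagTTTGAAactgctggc
Ccnf (chr17:24251410-24251509, minus strand): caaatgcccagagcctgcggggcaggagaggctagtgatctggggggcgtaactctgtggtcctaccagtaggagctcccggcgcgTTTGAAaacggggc
Ube2c (chr2:164769829-164769928, plus strand): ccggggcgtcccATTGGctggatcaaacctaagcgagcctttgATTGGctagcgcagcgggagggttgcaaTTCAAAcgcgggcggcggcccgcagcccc
Cdc20 (chr4:118437344-118437443, minus strand): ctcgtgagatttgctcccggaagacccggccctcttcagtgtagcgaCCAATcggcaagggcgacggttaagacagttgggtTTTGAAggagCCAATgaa
Top2a (chr11:99024190-99024289, minus strand): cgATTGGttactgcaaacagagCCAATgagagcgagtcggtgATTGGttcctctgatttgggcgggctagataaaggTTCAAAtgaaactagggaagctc
Kif11 (chr19:37376282-37376381, plus strand): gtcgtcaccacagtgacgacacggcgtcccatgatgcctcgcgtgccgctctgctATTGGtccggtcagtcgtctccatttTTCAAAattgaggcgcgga

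Depth and labels were checked first. The deposited values are gene counts divided by 1 factor per library, and whole reads recovered from them gave 34976865 to 38917550 reads per knockout library and 28352720 to 45655518 per control library. Rnaseh2b had 117.9, 127.5, 75.9 and 95.3 normalised counts in knockouts 5 to 8, and 2288, 2470, 1249 and 1207 in controls 1 to 4. Every knockout lay below every control, so no library went against its label. The controls themselves split, with 1249 and 1207 well below 2288 and 2470. The cause of that split was not tested. All 14 GMP marker genes were above a mean of 10 and none passed the test. Their summed level was 1186599.7 to 1244092.2 in knockouts and 1311013.4 to 1420080.3 in controls, without overlap. Most of that sum was Mpo, with a mean of 739426.1 in knockouts and 806204.7 in controls. Of the 14 log2 fold changes 10 were below 0 and 4 above, Cd34 among the latter at 0.34. Of the 14, 5 had an unadjusted limma p below 0.05, against 13.2% of all genes. These were Cd34 and, below 0, Elane (-0.35), Prtn3 (-0.28), Cebpe (-0.395) and Fcgr3 (-0.34). Knockout 8 stood apart in markers of other cells. Its summed level over 8 erythroid genes was 616.8, while the other knockouts had 196.2 to 204.4 and controls 173.2 to 245.6, and 1 of these genes, Hbb-bs, rose in the knockouts. Over 6 mast cell and basophil genes it had 15695.9, with the other knockouts at 4078.3 to 6582.4 and controls at 6363 to 9380.4, and 1 gene, Gzmb, fell in the knockouts. Over 7 stem cell genes it had 783.4, with the other knockouts at 320.5 to 563.6 and controls at 346.5 to 399.7. Of megakaryocyte genes 4 were measured, at 1013.7 to 2268.4 in knockouts and 1042.4 to 1368.8 in controls, and Vwf rose. The sums of 10 mature neutrophil genes were 1229.8 to 3161.5 in knockouts, the highest in knockout 8, and 1481.4 to 7352.2 in controls. These sums hide opposite directions, with log2 fold changes of -2.46 for S100a8 and 0.59 for Lcn2. Of the 9 tested, 4 were above 0 and 5 below, and 0 passed. At an unadjusted limma p below 0.05, 7 of the 9 passed, against 13.2% of all genes. Monocyte genes summed to 89550 to 111975.7 in knockouts and 102123.2 to 109753.2 in controls, and Ccr2 rose. B cell genes stayed at or below 1346.8 and T and NK cell genes at or below 34.5 in every library.

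None of the mitotic genes passed the test as lower or as higher in knockout GMP. In limma's test on log2(normalised count + 1), with Benjamini-Hochberg adjustment over all genes tested and a threshold of 0.05, 0 of the 38 genes passed, against 1.4% of all genes (234 of 16688, with 1.19% higher and 0.21% lower). Over all genes that balance turned with the libraries used: 547 were higher and 454 lower with array weights, 342 higher and 227 lower without knockout 8, and 651 higher and 789 lower without knockout 8 and control 1. Among the 8504 genes whose mean lay within the range of the 38, from 618.1 to 29566.6, 116 passed (1.36%), the smallest of them with a 1.22-fold change. At an unadjusted p below 0.05, 3 of the 38 passed (Ube2c, Ccnf and Ccnb1), against 13.2% of all genes. On the recovered reads edgeR's quasi-likelihood test called 0 of the 38 and 1.44% of all genes, and DESeq2 called Ube2c and 3.34% of all genes. The knockouts and the controls overlapped for every one of the 38, while they did not overlap for 7.41% of all genes.

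Fold changes lay close to 1 on either side. The median log2 fold change of the 38 was 0.05 (a fold of 1.04), against -0.01 over all genes tested, and 28 of the 38 were above 0, against 47.2% of all genes. Among the 8504 genes in the mean range of the 38, 40.9% were above 0. With libraries scaled to equal totals 32 of the 38 were above 0 and the median was 0.09, with quantile normalisation 29 and 0.08, and with edgeR's TMM scaling 28 and 0.07. With array weights 25 were above 0. With 1 library left out the count ran from 22 without knockout 5, at a median of 0.01, to 33 without control 4, at 0.07. The 95% interval of the fold change, which is not adjusted for the number of genes, had its lower bound above 0.75 for 37 of the 38 genes; the exception was Nuf2, at 0.749. It was above 0.8 for 35 genes. The upper bound was below 1.5 for 37 genes, with Ube2c at 1.54, and it was less than 25% above the controls for 29 genes. In bulk RNA fewer dividing cells and less RNA per dividing cell cannot be told apart.

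**Figure D1:**
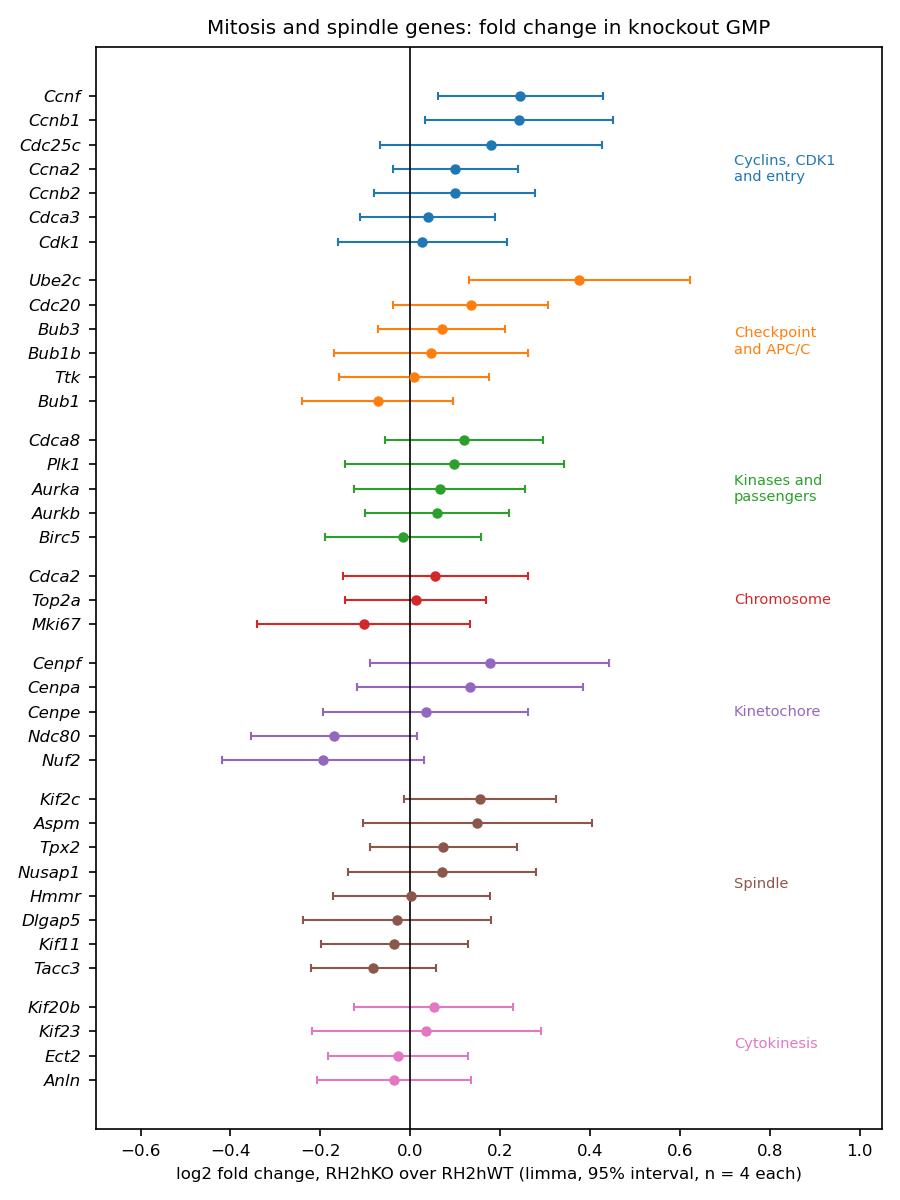
Fitted log2 fold change of each of the 38 genes, RH2hKO over RH2hWT (x axis), with its 95% interval as a bar (4 mice each), grouped by role. The points run from -0.19 for Nuf2 to 0.38 for Ube2c, and 3 of the 38 intervals exclude 0, those of Ube2c, Ccnf and Ccnb1.

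Genes that set off mitosis came first. Cdk1, the gene of the kinase itself, had 6429, 5477, 5691 and 6381 normalised counts in knockouts 5 to 8 and 5060, 5905, 6040 and 6570 in controls 1 to 4. The highest and the lowest of the 8 were both controls, and the log2 fold change was 0.03 ± 0.09 (SE; limma adjusted p = 0.934). Ccnb1, which encodes cyclin B1, had 2338, 2018, 2288 and 2326 in knockouts and 1583, 1860, 2146 and 2028 in controls. Controls 3 and 4 lay above knockout 6, and the log2 fold change of 0.24 ± 0.10 (SE) did not pass (adjusted p = 0.294). Its pseudogene copy Ccnb1-ps averaged 1621 ± 81.5 in knockouts and 1437 ± 167 in controls (SD, n = 4 each), so the split of reads between the copies, and with it the level of Ccnb1, is uncertain.

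Ccnf encodes cyclin F, which pairs with an SCF ubiquitin ligase rather than with a kinase. It had 3334, 2947, 3055 and 2623 in knockouts and 2374, 2584, 2387 and 2722 in controls. Knockouts 5 to 7 lay above every control, knockout 8 did not, and the log2 fold change was 0.25 ± 0.09 (SE; adjusted p = 0.222). Without knockout 8 it was 0.31 and passed (limma adjusted p = 0.0476, within a range of 0.0438 to 0.450 over the alternatives).

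The other cyclin genes and activators differed by less. Ccna2, the gene of cyclin A2, averaged 7994 ± 292 in knockouts and 7458 ± 353 in controls (SD, n = 4 each, here and in the means that follow). Ccnb2, the gene of cyclin B2, averaged 4266 ± 266 in knockouts and 3993 ± 396 in controls. Cdc25c, which encodes a phosphatase that activates CDK1, was the lowest of the 38 with 658 ± 81.4 in knockouts and 579 ± 48.4 in controls. Cdca3, whose product helps an SCF ligase remove the CDK1 inhibitor WEE1, had 3238 ± 141 in knockouts and 3152 ± 150 in controls. With all 8 libraries the 7 genes of this role had log2 fold changes above 0, from 0.03 to 0.25, and 0 of the 7 passed the test. That of Cdk1 was below 0 in 5 of the 21 alternatives, down to -0.08 without knockout 8 and control 1, and that of Ccnb1 was 0.16 without control 1 and 0.14 without knockout 8 and control 1. Ccna2 overlaps Exosc9 and Cdc25c overlaps Gm3550 on the opposite strand. Whether reads were counted by strand is not stated, so levels of such genes are uncertain.

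Ube2c, the gene of the ubiquitin-conjugating enzyme that serves the APC/C, had the largest fold change of the 38. Its values were 4507, 4006, 4412 and 3099 in knockouts 5 to 8 and 2782, 3298, 2783 and 3404 in controls 1 to 4. Knockouts 5 to 7 were above all controls and knockout 8 was between them. Its fitted level was 29.8% higher in the knockouts (95% interval of the fold 1.10 to 1.54; limma adjusted p = 0.154). Without knockout 8 the log2 fold change was 0.49 and passed (adjusted p = 0.00643, within a range of 0.00643 to 0.389 over the alternatives), together with Ccnf, when 3.41% of all genes passed. With array weights, which give less weight to variable libraries, Ube2c was the 1 member that passed (adjusted p = 0.025), as did 6% of all genes.

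Cdc20, which activates the APC/C in mitosis, averaged 4964 ± 369 in knockouts and 4524 ± 387 in controls. It overlaps Elovl1 on the opposite strand over 53 bases. The spindle checkpoint holds CDC20 back until every chromosome is attached, and none of its genes passed the test. Bub1b, the gene of BUBR1, had 6362 ± 554 in knockouts and 6185 ± 835 in controls. Bub3, a partner of BUB1 and BUBR1, had 6312 ± 229 in knockouts and 6016 ± 298 in controls. Ttk, which encodes the checkpoint kinase MPS1, had 2009 ± 103 in knockouts and 1999.5 ± 136 in controls. Bub1, the other kinase, had 4103 ± 137 in knockouts and 4329 ± 429 in controls. Of the 6 genes of this role 0 passed, and the adjusted p of the 4 checkpoint genes was 0.706 to 0.981.

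**Figure D2:**
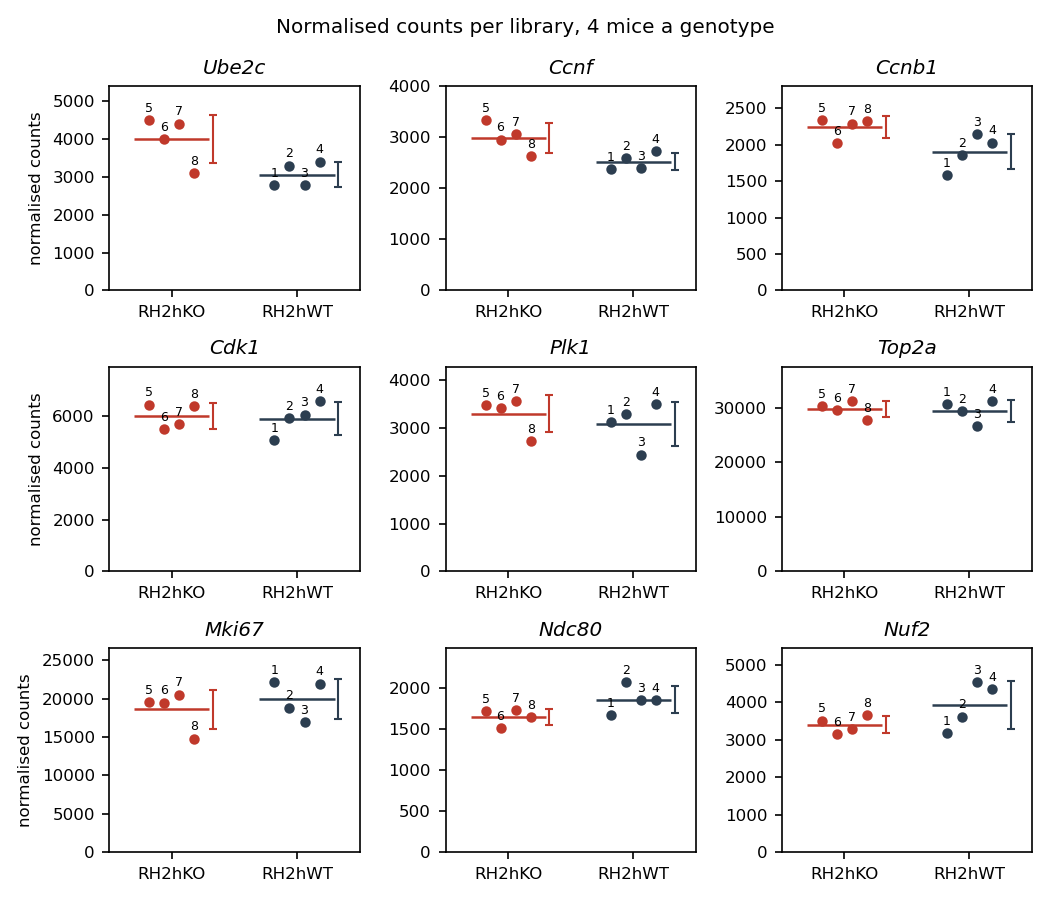
Normalised counts (y axis, from 0) of 9 genes in each library, RH2hKO left and RH2hWT right; points are single mice with their replicate number, lines are group means and bars are 1 SD (n = 4). Ube2c and Ccnf have knockouts 5 to 7 above all controls and knockout 8 among them, and the groups overlap in all 9 panels.

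Plk1, which encodes polo-like kinase 1, had 3485, 3413, 3565 and 2728 in knockouts and 3124, 3293, 2445 and 3500 in controls. The lowest library was control 3 and the next was knockout 8, so the spread within each group was larger than the difference between them (log2 fold change 0.10 ± 0.11 SE; adjusted p = 0.771). Aurka, the gene of the centrosomal Aurora A kinase, averaged 3177 ± 335 in knockouts and 3030 ± 251 in controls. Aurora B works in the chromosomal passenger complex with survivin and borealin, encoded by Birc5 and Cdca8. Aurkb averaged 5821 ± 467 in knockouts and 5578 ± 281 in controls. Birc5 averaged 3697 ± 320 in knockouts and 3735 ± 273 in controls, and the sign of its log2 fold change of -0.02 turned positive in 7 of the 21 alternatives, equal totals (0.02) and quantile normalisation (0.01) among them. Cdca8, at 4682 ± 335 in knockouts and 4313 ± 388 in controls, overlaps 9930104L06Rik on the opposite strand. Of the 5 genes 0 passed, with log2 fold changes from -0.02 to 0.12.

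Top2a and Mki67, common marks of dividing cells, had the highest counts of the 38. Top2a encodes topoisomerase II alpha, which untangles sister chromatids, and had 30285.6, 29571.6, 31151.3 and 27702 in knockouts and 30603.4, 29366.6, 26650.1 and 31202.4 in controls. The knockout values all lay within the range of the controls, with a fold of 1.01 (95% interval 0.904 to 1.13; adjusted p = 0.965). Mki67 encodes Ki-67, which coats mitotic chromosomes, and had 19571.3, 19467.8, 20513.5 and 14800.9 in knockouts and 22140.5, 18794, 16901 and 21926.7 in controls. Knockout 8 was the lowest of the 8 and controls 1 and 4 were the highest. Its log2 fold change was -0.10 ± 0.11 (SE; adjusted p = 0.747), and 0.002 without knockout 8. Cdca2, whose product brings a phosphatase to chromosomes at mitotic exit, had 2287 ± 320 in knockouts and 2184 ± 75.1 in controls.

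With all 8 libraries, kinetochore genes held the 2 most negative fold changes. Nuf2 and Ndc80 encode partners in the complex that grips the spindle microtubules. Nuf2 had 3511, 3163, 3286 and 3667 in knockouts and 3182, 3623, 4545 and 4361 in controls. Controls 3 and 4 were above all knockouts, while control 1 was below knockouts 5, 7 and 8. The log2 fold change was -0.19 ± 0.10 (SE; adjusted p = 0.460). Ndc80 had 1712, 1511, 1726 and 1643 in knockouts and 1663, 2068, 1846 and 1847 in controls. Controls 2 to 4 were above all knockouts and control 1 was not (log2 fold change -0.17 ± 0.09 SE; adjusted p = 0.422). Without control 3 the log2 fold change of Nuf2 was -0.12, less negative than that of Mki67 at -0.18, and without control 2 that of Ndc80 was -0.12. With knockout 8 and control 1 both left out, Nuf2 passed as lower (log2 fold change -0.33, limma adjusted p = 0.0364). Its adjusted p ranged from 0.0364 to 0.786 over the alternatives. In the same fit Ccnf, Cenpf and Ube2c passed as higher and 8.62% of all genes passed. Knockout 8 had the highest knockout value of Nuf2 and control 1 the lowest control value, so leaving both out favours a lower call. The alternatives were chosen with earlier results of these data known.

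The other kinetochore genes did not pass either. Cenpa, the gene of the centromeric histone H3 variant, had 4104 ± 587 in knockouts and 3746 ± 544 in controls. Cenpe, a kinesin gene of chromosome alignment, had 3586 ± 528 in knockouts and 3481 ± 308 in controls, and its log2 fold change of 0.03 was below 0 without knockout 7 (-0.03) or control 3 (-0.03). Cenpf, which encodes a large coiled-coil protein of the outer kinetochore, had 3083 ± 556 in knockouts and 2702 ± 290.1 in controls. Cenpf was 2304 in knockout 8, while knockouts 5 to 7 had 3059 to 3485 and controls 2299 to 2954. Of the 5 kinetochore genes 0 passed, and their log2 fold changes ran from -0.19 to 0.18.

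Among 8 spindle genes 5 had log2 fold changes above 0, from 0.003 to 0.15, and 0 passed. Kif11 encodes the motor that pushes the spindle poles apart, and had 7102 ± 457 in knockouts and 7284 ± 590 in controls. Kif2c, the gene of a kinesin that depolymerises microtubules, had 2265 ± 140.3 in knockouts and 2035 ± 129 in controls. Tpx2, which encodes an activator of Aurora A, had 6399 ± 446 in knockouts and 6081 ± 425 in controls. In Kif2c and Tpx2, as in Ccnf, Cenpf and Ube2c, knockouts 5 to 7 lay above all controls: 5 of the 38, where 7.57% of all genes did so. None of the 38 had knockouts 5 to 7 below all controls, where 8.59% of all genes did.

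Nusap1, which encodes a protein that bundles spindle microtubules, had 4005 ± 411 in knockouts and 3817 ± 446 in controls. Hmmr, the gene of a spindle pole protein also known as RHAMM, had 2798 ± 252 in knockouts and 2787 ± 167 in controls. Tacc3 stabilises kinetochore fibres and had 5465 ± 193 in knockouts and 5783 ± 226 in controls. Dlgap5, also known as HURP and bound to the same fibres, had 2557 ± 258 in knockouts and 2613 ± 297 in controls. Aspm organises spindle poles and had 1800.1 ± 280.1 in knockouts and 1616 ± 205 in controls. Nusap1 overlaps Oip5, and Tacc3 overlaps Tmem129, on the opposite strand.

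Cytokinesis genes had the median closest to 0 of the 7 roles, a median log2 fold change of 0.005. Ect2 activates the small GTPase RhoA at the division plane. Its levels were 3829 to 3874 in knockouts and 3683 to 4384 in controls, so that the knockouts lay inside the controls and varied by 0.518% of their mean (SD). Anln encodes anillin, a scaffold of the contractile ring, and had 3112 ± 194 in knockouts and 3195 ± 275 in controls. Kif23 and Kif20b encode kinesins of the central spindle and midbody. Kif23 had 3425 ± 661 in knockouts and 3289 ± 101 in controls, and Kif20b had 2619 ± 264 in knockouts and 2518 ± 105 in controls. Kif23 was 2492 in knockout 8, while knockouts 5 to 7 had 3425 to 3948 and controls 3211 to 3432.

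Levels between genes can be compared per length. On the scale of normalised counts per kilobase of exon, Top2a stood highest with 3293 ± 163 in knockouts and 3268 ± 224 in controls. Ccnb2 came next with 2787 ± 174 in knockouts and 2608 ± 259 in controls, then Cdc20 with 2657 ± 197 in knockouts and 2422 ± 207 in controls, and these 2 overlapped within their SD. Cdc25c was lowest per kilobase with 134 ± 16.6 in knockouts and 118 ± 9.84 in controls. Aspm was just above it with 155 ± 24.2 in knockouts and 139 ± 17.7 in controls. The order from Top2a to Cdc25c therefore spanned much more than any difference between the genotypes.

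Averaged over the 38 genes, the libraries of both genotypes spread around the controls. Relative to the control mean, the averaged log2 level was 0.16, 0.03, 0.12 and -0.08 in knockouts 5 to 8 and -0.07, 0.02, -0.05 and 0.10 in controls 1 to 4, and the groups overlapped. Knockout 5 was the highest of the 8 libraries in 16 genes and the lowest in 0. Knockout 8 was the lowest knockout in 28 genes and below every control in 9. It was also the library with the raised erythroid, mast cell, stem cell and megakaryocyte marker sums. The part of those cells in its mitotic gene levels was not tested. Among controls, control 4 was the highest in 25 genes, and control 1 was the lowest in 18 and control 3 in 14.

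**Figure D3:**
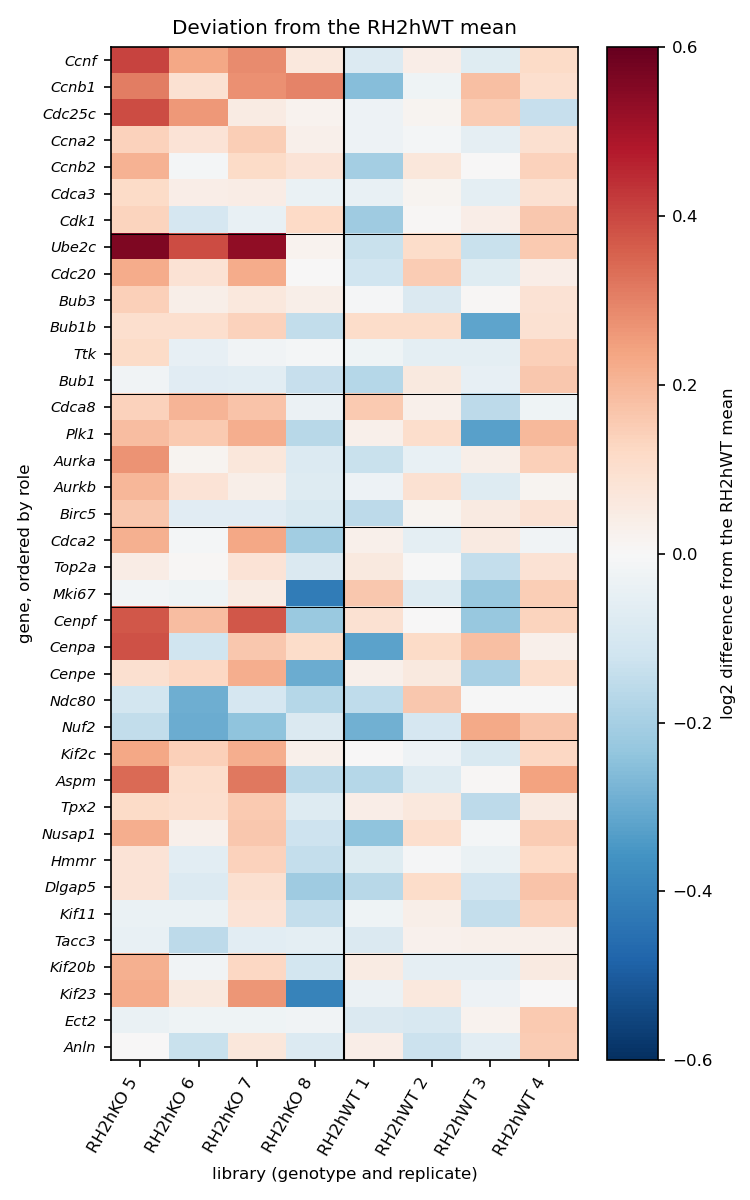
Log2 difference of each of the 38 genes (rows, by role) from the RH2hWT mean in each library (columns, RH2hKO left of the line and RH2hWT right). Red is higher and blue lower. Ube2c reaches 0.56 in knockout 5, and Kif23 and Mki67 are low in knockout 8. Nuf2, Ndc80, Bub1, Tacc3 and Ect2 are below 0 in all 4 knockouts, and also in control 1.

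Genes of the p53 arrest response were measured in the same libraries. Cdkn1a, the gene of p21, had 6217, 4502, 5516 and 3583 in knockouts 5 to 8 and 463, 422, 480 and 344 in controls 1 to 4 (log2 fold change 3.51 ± 0.15 SE; limma adjusted p = 1.48e-08). Knockout 5, with the most Cdkn1a, also had the highest mean over the mitotic genes, and knockout 8, with the least Cdkn1a among knockouts, had the lowest. Knockout 8 was also the library with the raised erythroid, mast cell, stem cell and megakaryocyte marker sums. A link between the Cdkn1a and mitotic gene levels was not tested. Of 10 genes listed for p53 arrest, with Trp53 and Mdm2 among them, 9 were tested. Of these 4 rose, against 1.19% of all genes: Cdkn1a, Ccng1, Mdm2 and Plk2. Ccng1, the cyclin G1 gene, had 15128 ± 1071 in knockouts and 3820 ± 315 in controls. Mdm2, which encodes the ligase that degrades p53, had 3161 ± 379 in knockouts and 2132 ± 133 in controls, and Plk2, a kinase gene, 244 ± 138 in knockouts and 43.1 ± 21.1 in controls. Plk2 was 56.8 in knockout 8, and its call was lost without knockout 5, 6 or 7 or control 1, 3 or 4 (adjusted p 0.0532 to 0.140). Trp53 itself had 5811 ± 401 in knockouts and 5269 ± 479 in controls and did not pass. Btg2 and Plk3 did not pass either, at log2 fold changes of 0.40 and 0.23 (limma adjusted p = 0.583 and 0.736). Gadd45a and Sfn lay below 0, at -0.06 and -0.31, and did not pass (limma adjusted p = 0.899 and 0.515).

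Outside the 38 genes, 74 further mitosis genes were examined, a list written with earlier results of these data known. Of the 74, 3 rose and 0 fell, against 1.4% of all genes. That absence of falls depended on the libraries: without knockout 8 and control 1, 8 passed as higher and 5 as lower (Cenpq, Cks2, Mad2l1, Smc4 and Trip13, named after their values were seen), and with array weights Smc4 passed as lower. With all 8 libraries the groups did not overlap for 9 of the 74, the 3 called genes among them, against 7.41% of all genes. Of the others, Fam83d, Kifc1, Pimreg and Troap were above all controls in every knockout (limma adjusted p 0.134 to 0.181). Smc4, a condensin gene, was below all controls in every knockout (log2 fold change -0.21, limma adjusted p = 0.159), as was Spc24 (-0.20, adjusted p = 0.281). These uncalled genes were named after their values were seen. The 74 log2 fold changes had a median of -0.02, and 34 were above 0. Psrc1, which encodes a microtubule regulator first described in mouse cells as the p53-inducible gene DDA3, had 1747, 1296, 1651 and 1119 in knockouts and 284.5, 408, 442 and 317 in controls. All knockouts were above all controls (log2 fold change 2.00 ± 0.16 SE; adjusted p = 8.07e-06). Gtse1, whose product binds microtubules and p53, had 3429, 3033, 3483 and 2704 in knockouts and 1528, 1442, 1288 and 1622 in controls. Again the groups did not overlap (log2 fold change 1.10 ± 0.10 SE; adjusted p = 2.03e-05).

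Cdc25b, a phosphatase gene of the CDK1 activators, was the third, with 1558, 1099, 1522 and 881 in knockouts and 747, 790, 758 and 719 in controls. All knockouts were above all controls, knockout 8 by the least (log2 fold change 0.71 ± 0.15 SE; adjusted p = 0.0353). That call was lost when any 1 library other than knockout 8 was left out (adjusted p 0.0555 to 0.140). Cdc25b overlaps Spef1 on the opposite strand, at a mean of 88.1 normalised counts.

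**Figure D4:**
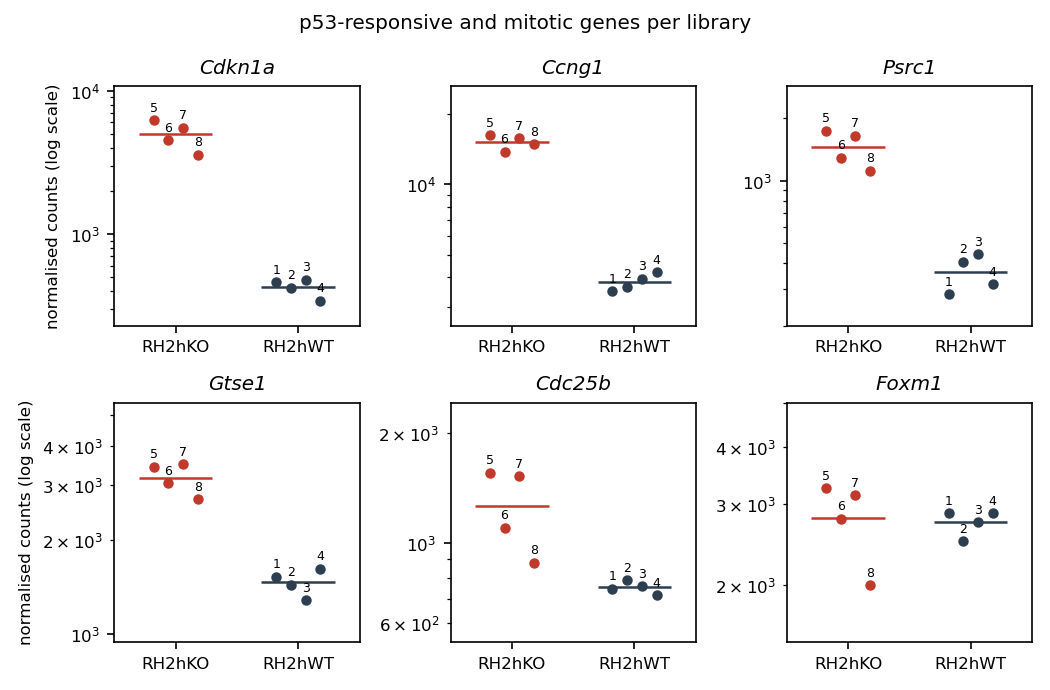
Normalised counts (log scale) per library of Cdkn1a, Ccng1, Psrc1, Gtse1, Cdc25b and Foxm1, RH2hKO left and RH2hWT right; points are single mice with their replicate number and lines are group means. In the first 5 panels all 4 knockouts are above all 4 controls, while Foxm1 overlaps.

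Regulators of the programme were examined as a further list. Of 21 genes of the DREAM and MuvB complexes, the RB family and the E2F factors, 0 passed (3 at an unadjusted p below 0.05), and 7 fold changes were above 1, at a median log2 value of -0.04. The 2 genes whose groups did not overlap, against 7.41% of all genes, were Rbl2 and Rbl1, pocket protein genes of DREAM named here after their values were seen. Rbl2, which encodes p130, had 3405, 3666, 4106 and 3222 in knockouts and 2791, 3012, 2635 and 2857 in controls (log2 fold change 0.35; limma adjusted p = 0.0649). Rbl1, which encodes p107, was lower in every knockout than in every control (log2 fold change -0.17; adjusted p = 0.339). Foxm1, a transcription factor that activates mitotic genes with MuvB, had 3258, 2793, 3144 and 1996 in knockouts and 2866, 2492, 2747 and 2873 in controls (adjusted p = 0.993). Its value in knockout 8 was the lowest of the 8. Mybl2, which encodes B-MYB, another MuvB partner, had 2763 ± 245 in knockouts and 2768 ± 87.6 in controls. Rbbp4, the MuvB subunit gene with the highest counts, had 17386.5 ± 1647 in knockouts and 20502.6 ± 2105 in controls (adjusted p = 0.259). Tfdp1, an E2F partner, had 8928 ± 572 in knockouts and 9651 ± 643 in controls.

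Of 17 genes of the APC/C and its regulators 0 passed (1 at an unadjusted p below 0.05), at a median log2 fold change of -0.08. Anapc5 had 13219 ± 342 in knockouts and 12994.6 ± 688 in controls, and Anapc1 had 8649.5 ± 588 in knockouts and 8780.4 ± 746 in controls; both encode scaffold subunits. In the 35 DNA replication genes, which act in S phase before mitosis, 0 passed as well. At an unadjusted p below 0.05, 10 of the 35 passed, against 13.2% of all genes. Their median log2 fold change was -0.11, and 2 of the 35 were above 0, against 47.2% of all genes. Mcm6, a helicase gene, had a log2 fold change of -0.17 ± 0.08 (SE; adjusted p = 0.351), and Mcm5, of the same helicase, -0.19 ± 0.08 (adjusted p = 0.304). The difference between the replication and the mitotic list was not tested.

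**Figure D5:**
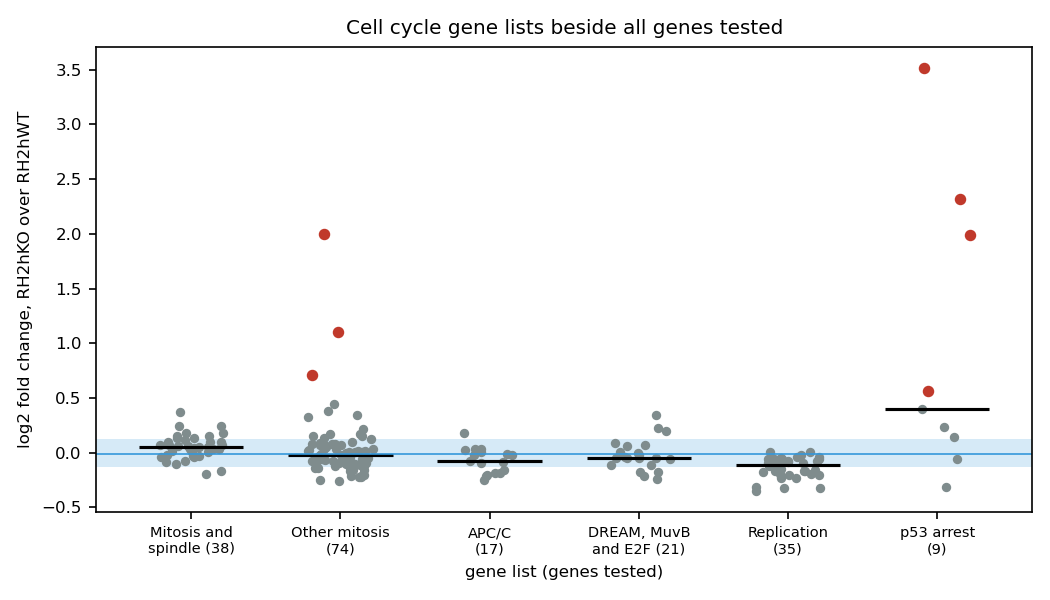
Log2 fold change, RH2hKO over RH2hWT (y axis), of the genes tested in 6 lists; each point is a gene, red where limma's adjusted p was below 0.05, and black lines are list medians. The blue band spans the middle 50% of all 16688 genes tested (-0.13 to 0.13); the 38 mitosis and spindle genes hold no red point, other mitosis genes 3 and p53 arrest genes 4.

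The fold changes can be set beside the promoter letters, as a description. The 26 genes with a CHR match had a median log2 fold change of 0.05 with 20 above 0, and the 6 with a window and no match (Birc5, Ccnb1, Cenpe, Nuf2, Nusap1 and Tacc3) had 0.01 with 3 above 0. Among the genes tested that had a promoter window, the median was -0.01 in the 1669 with a match and -0.01 in the 8291 without one. Of the 3 promoters printed above with a match nearest the start, those of Ccnf, Cdk1 and Cdc20, the genes had log2 fold changes of 0.25, 0.03 and 0.13.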

How the data were processed

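Per the labels' protocols, poly(A) RNA of sorted GMP went into paired-end libraries that keep the strand. GSNAP 2020-12-16, DESeq2 1.30.1, R 3.5.1, featureCounts 2.0.1, FastQC and build mm10 stand in the submitters' processing notes; the annotation release and whether counting used the strand are not given there. The deposited table holds a signal value per gene and library: normalised gene counts, which by their values the authors scaled by a size factor for each library and rounded to 0.1. Within 0.051 normalised counts 99.997% of 169267 values above 0 came out as whole reads.

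Groups came from the labels, which name separate mice. limma 3.58.1 in R 4.3.3 was fitted with an intensity trend to log2(normalised count + 1) of genes with a mean of at least 10; edgeR 4.0.16 and DESeq2 1.42.0 were run on the recovered reads. The log2(value + 1) scale understates changes of low genes. The fits were tested on simulated data. The planted changes were larger than those of the 38 genes, and no library was made to stand apart. The simulation therefore does not show whether changes of the size seen in the 38 would be found. All 38 gene coordinates and exon lengths equal those of GENCODE M21. Members, lists and alternatives were chosen with earlier results of these data known. All 38 genes are named. Each other list contributes at most 5 called genes, by adjusted p, or its 2 most abundant where none was called, plus Rnaseh2b, Cdkn1a, Ccng1, Trp53, Foxm1 and Mybl2. Outside that rule, Rbl1, Rbl2 and the uncalled marker, p53 arrest and other mitosis genes were named after their values were seen. Library values are given for the 3 highest and 3 lowest fold changes and for Cdk1, Ccnb1, Plk1, Top2a and Mki67. Alternatives were other pseudocounts, filters, scalings and weights, no trend, both count tools and libraries left out.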

Additional observations from a re-analysis of the deposited data

Results flagged for a closer look

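In 7 of 100 sets of 4 values, 1 mouse stood far from the other 3 of its genotype, by a rule that chance meets in about 1 set in 20. Ccnb1 was 2017.6 in knockout 6, against 2288.3 to 2338 in the other knockouts. Bub1b was 5539.6 in knockout 8, against 6573.6 to 6747.5 in the other knockouts, and 4934.5 in control 3, against 6535.9 to 6635 in the other controls. Birc5 was 4174.6 in knockout 5, against 3500.3 to 3559.3. Ttk was 2201.5 in control 4, against 1917.6 to 1959.5 in the other controls. Tpx2 was 5446.7 in control 3, against 6233.7 to 6341.8, and Tacc3 was 5444.4 in control 1, against 5884.7 to 5902.1. The cause of these gaps was not tested.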

How the results depend on the processing

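No paired analysis was possible because the knockouts are numbered 5 to 8 and the controls 1 to 4, with no shared number. Of all genes, 234 changed; 104 did with no intensity trend, 1001 with array weights, 558 with DESeq2, 1440 without knockout 8 and control 1 together, and 135 to 569 with 1 library left out. More were higher than lower in all of these except without knockout 8 and control 1 together (651 higher, 789 lower). Of the 38 genes, 0 passed as higher, but 1 did with array weights and with DESeq2, 3 without knockout 8 and control 1 together, and 0 to 2 with 1 library left out (the 2 without knockout 8). None passed as lower except 1, Nuf2, without knockout 8 and control 1 together. The median log2 fold change of the 38 was 0.05. Over the 21 alternatives it ran from 0.01 without knockout 5 to 0.11 without knockout 8. The averaged levels of single libraries had an SD of 0.09 within genotypes, which is not the error of that median. Of the 74 other mitosis genes 3 changed, all higher; 7 did with array weights (1 of them lower), 6 with DESeq2 (0 lower), 13 without knockout 8 and control 1 together (5 of them lower), and 2 to 7 with 1 library left out (0 lower). In 46 of 798 pairs of gene and alternative the sign of a fold change that did not pass turned, in 18 genes. Plk2 was not called with quantile normalisation (adjusted p = 0.0607) or no trend (0.232), Cdc25b (0.203) and Mdm2 (0.0741) with no trend. The causes were not tested. With 4 mice per genotype the median 95% half-width of the 38 was 0.18 (log2), not adjusted for the number of genes. A call took more than that: among genes in their mean range, the smallest called log2 change was 0.288. Ube2c did not pass at 0.38. Differences below 0.18, and some above it, were therefore not resolved.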
